A study of Rattus norvegicus with 6 samples.

Results

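The genes described here make or receive the small signals that set the tone of hepatic blood vessels: nitric oxide, endothelin, angiotensin and prostaglandins. They were chosen by Ensembl gene ID as Nos2 (ENSRNOG00000011023), Nos3 (ENSRNOG00000009348), Edn1 (ENSRNOG00000014361), Ednrb (ENSRNOG00000010997), Agt (ENSRNOG00000018445) and Ptgs2 (ENSRNOG00000002525). The rule uses no measured values, but the choice was made with earlier results of these data known. All 6 IDs were found, among 26689 gene IDs in each count table. The pairing of these IDs with symbols came with the choice of genes. It was not checked here, since 0 of 26689 IDs matched the RefSeq gene table at hand. The names below rest on that pairing.

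Rat liver (Rattus norvegicus) was sequenced after ischemia reperfusion (IR), in which the portal vein was clamped for a time and flow then restored. The treated IR group was given 9 mg/kg etanercept, a soluble TNF receptor that captures this cytokine, 16 to 18 h ahead of the clamping. It also had an intravenous infusion of nitroglycerin, which releases nitric oxide, at a rate of 6 µg/kg/min that began before IR and ran on through it. The IR group had the same injury alone, and the control group was healthy and untreated, with no sham operation named in the labels. Each condition was measured in hepatocytes freshly isolated by collagenase perfusion and in whole liver of other animals. The IR and treated IR groups were sampled 1 day after the injury. Each library is a pool of RNA from 3 animals, and each of the 6 groups is 1 library. No pair of libraries can therefore be checked against replicates, and the words higher and lower speak of those libraries only. The labels state no strain, sex or age.

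Nitric oxide relaxes vessels and is made by Nos3 in endothelium at a steady low rate, and by Nos2 in macrophages, hepatocytes and other cells after cytokine exposure. Endothelin-1, the product of Edn1, constricts vessels. Its receptor Ednrb sits on liver endothelium, where it promotes nitric oxide release, and on stellate cells, where it promotes contraction. Agt encodes angiotensinogen, the precursor from which renin and angiotensin-converting enzyme cut the constrictor angiotensin II, and hepatocytes are its main source. Ptgs2 encodes cyclooxygenase-2, the inducible enzyme that starts prostaglandin synthesis.

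Reads counted in genes ran from 1945331 in liver control to 7160610 in liver IR. Levels are given in CPM, the reads of a gene per 1000000 reads, scaled between libraries by the trimmed mean of M-values (TMM). The level that 3 reads would give, taken as the limit that a count of 0 allows, was between 0.399 CPM in liver treated IR and 1.39 CPM in hepatocyte treated IR. Alignments that were not unique made up 60.1% of alignments in liver IR and 41.1% to 46.3% in the other libraries. The hepatocyte label was not checked against marker genes, because their symbols could not be matched to IDs here. A gene was called apart between a pair of libraries when its levels differed at least 2-fold and the 95% Clopper-Pearson counting interval of the ratio excluded 1. By this rule 23.3% of 9932 genes were apart between hepatocyte treated IR and hepatocyte IR, 8.32% between hepatocyte treated IR and control, and 16.5% between hepatocyte IR and control. The same pairs of liver libraries had 2.77%, 7.21% and 5.98% of genes apart.

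The 6 genes fell into 3 kinds by their reads. Agt had at least 2720 reads in every library. Nos3 and Ednrb were present at low levels in whole liver and near or under the level of 3 reads in hepatocytes. Edn1, Ptgs2 and Nos2 had 5, 1 and 0 reads in all 6 libraries together. Agt, Nos3 and Ednrb were among the 9932 genes that passed the expression filter. Nos3 and Ednrb passed it through liver libraries alone, with 3 and 2 liver libraries and 0 hepatocyte libraries at the filter's level of 2.28 unscaled CPM.

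**Figure D1:**
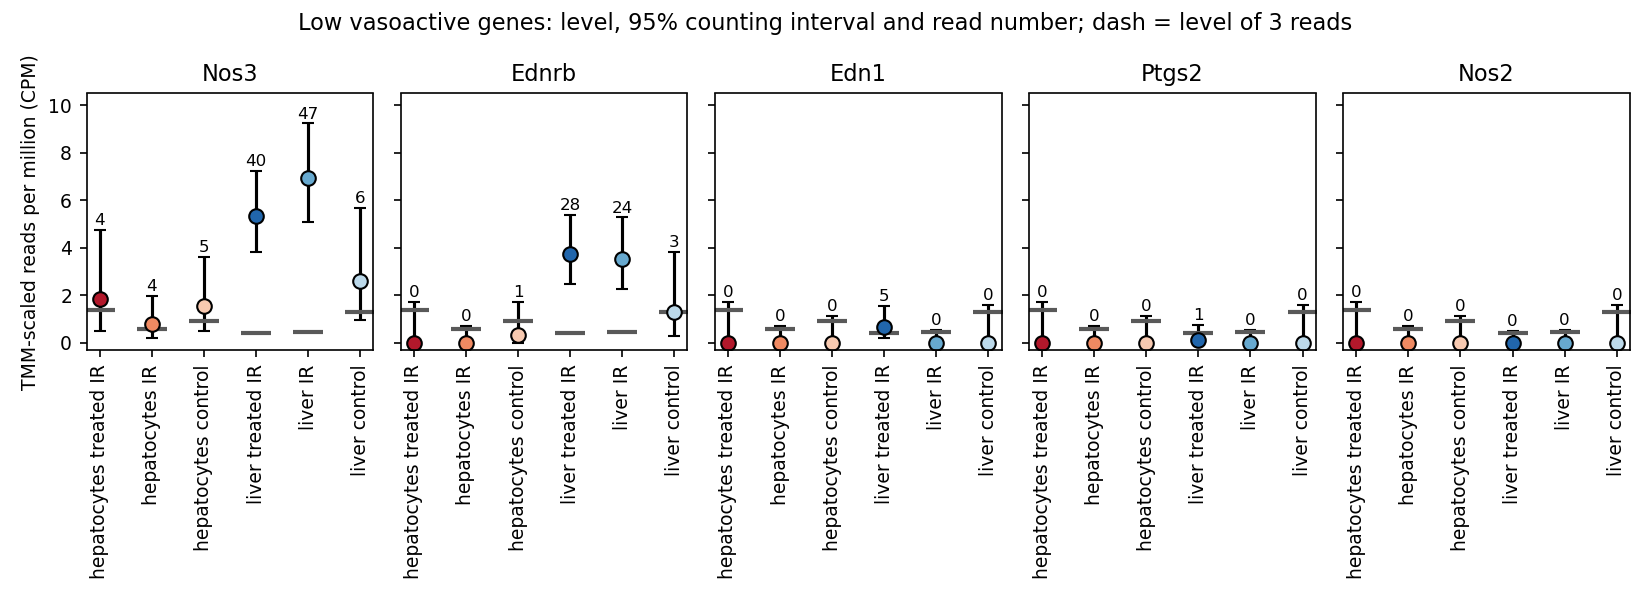
TMM-scaled CPM of Nos3, Ednrb, Edn1, Ptgs2 and Nos2 in the 6 libraries. Points are levels, bars are 95% Clopper-Pearson counting intervals, numbers are raw reads and dashes are the level of 3 reads in that library; Nos3 and Ednrb had 40 and 28 reads in liver treated IR and 47 and 24 in liver IR, while Nos2 had 0 in every library.

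The first comparison was between hepatocytes and whole liver. Ednrb was called lower in hepatocytes by the test across all genes, with and without the expression filter. Nos3 was called lower only without the filter, and Agt showed no difference beyond the spread between libraries. Since Nos3 and Ednrb passed the filter through liver libraries alone, that selection favoured a lower level in hepatocytes, and the fit with no filter is given beside each. In these bulk samples fewer cells of a type and less RNA per cell cannot be told apart. Endothelial cells express Nos3, and liver endothelial and stellate cells express Ednrb, but the cell source of these reads was not tested. Edn1 and Ptgs2 did not pass the filter, and their promoters are not printed. The promoters shown are those of Nos3 and Ednrb, which passed it through liver libraries alone. Each is the run of 250 bases before the annotated start, on the minus strand of the GRCr8 assembly in RefSeq, at chr4:11706582-11706831 for Nos3 and chr15:87086766-87087015 for Ednrb. Capitals mark a match to a known promoter motif. The motifs searched, on both strands, were the GC box, spelled GGGCGG, then the TATA box, whose letters here were TATAAA, and last the motif of the GATA factors, taken as AGATAA.
Nos3: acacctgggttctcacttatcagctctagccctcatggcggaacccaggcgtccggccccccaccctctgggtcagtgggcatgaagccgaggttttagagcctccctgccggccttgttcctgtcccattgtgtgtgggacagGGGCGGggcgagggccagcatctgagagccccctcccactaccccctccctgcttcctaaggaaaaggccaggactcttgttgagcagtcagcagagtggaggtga
Ednrb: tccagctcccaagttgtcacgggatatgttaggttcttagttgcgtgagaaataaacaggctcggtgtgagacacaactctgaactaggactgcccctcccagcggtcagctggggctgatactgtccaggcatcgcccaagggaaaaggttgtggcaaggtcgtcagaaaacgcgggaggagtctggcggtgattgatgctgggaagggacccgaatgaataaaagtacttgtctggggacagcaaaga

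The Nos3 window is 62.4% G and C and holds 1 GC box, which begins 106 bases before the start. Of 33469 promoter windows of this length in the table, 30.5% hold a GC box, 12.9% a TATA box and 10.3% the GATA motif. The Ednrb window is 53.2% G and C and holds none of these letters. Only these exact spellings were searched, so a motif spelled otherwise in either window would not be marked. A match of letters is a description of the window and says nothing of whether a factor binds there. Promoters of 4 of the 6 genes were in the table, and Agt and Nos2 were not.

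Ednrb, the endothelin B receptor, had 0 reads in hepatocyte treated IR, 0 in hepatocyte IR and 1 in hepatocyte control. In liver it had 28 reads in treated IR, 24 in IR and 3 in control, or 3.73, 3.55 and 1.31 CPM. The liver values as counted were all above the hepatocyte ones, as for 11.5% of the 9932 genes, but liver control cannot be separated from hepatocytes at this depth: 0 reads in hepatocyte treated IR allow up to 1.39 CPM, and the counting intervals overlap. Summed over the 3 libraries of each preparation there was 1 read in hepatocytes against 55 in liver, and the level in liver exceeded that in hepatocytes 35.1-fold (counting interval 6.04 to 1411). In the model of all 6 libraries with condition as a term, the log2 ratio of hepatocytes to liver was -4.53 (SE 1.10, edgeR quasi-likelihood adjusted p = 0.0233). With no expression filter it was -4.52 (edgeR adjusted p = 0.00157, over 16548 genes). In this comparison 4.9% of genes were called lower in hepatocytes and 0.433% higher. Among the 735 genes that, like Ednrb and Nos3, passed the filter through liver libraries alone, 51.4% were called lower. All 735 of these genes were lower in hepatocytes by direction, so a direction that holds adds no support. For Ednrb the direction held without each library in turn, but the call did not. The log2 ratio was -3.46 without liver IR (edgeR adjusted p = 0.169), -4.09 without liver treated IR (0.151) and -3.53 without hepatocyte IR (0.0794). It was -7.17 without liver control (edgeR adjusted p = 0.00533), -7.11 without hepatocyte control (0.0067) and -4.13 without hepatocyte treated IR (0.0485). Over all alternatives run the adjusted p was between 0.00157 and 0.169.

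Nos3, the endothelial nitric oxide synthase, had 4 reads in hepatocyte treated IR, 4 in hepatocyte IR and 5 in hepatocyte control, or 1.85, 0.772 and 1.55 CPM. In liver it had 40 reads in treated IR, 47 in IR and 6 in control, or 5.33, 6.95 and 2.61 CPM. The liver values as counted were again all above the hepatocyte ones, as for 11.5% of the 9932 genes. Nos3 had 3 liver libraries and 0 hepatocyte libraries at the filter's level, a selection that favours such a separation. The counting intervals overlapped between the control libraries and between the treated IR libraries. Over the 3 conditions Nos3 averaged 1.39 ± 0.557 CPM in hepatocytes and 4.96 ± 2.19 CPM in liver (SD, n = 3 libraries each). The log2 ratio of hepatocytes to liver was -1.91 (SE 0.60, edgeR adjusted p = 0.105). With no expression filter the adjusted p was 0.0262 (edgeR), and over all alternatives run it was between 0.0262 and 0.482, so that the filter decided whether Nos3 was called.

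**Figure D2:**
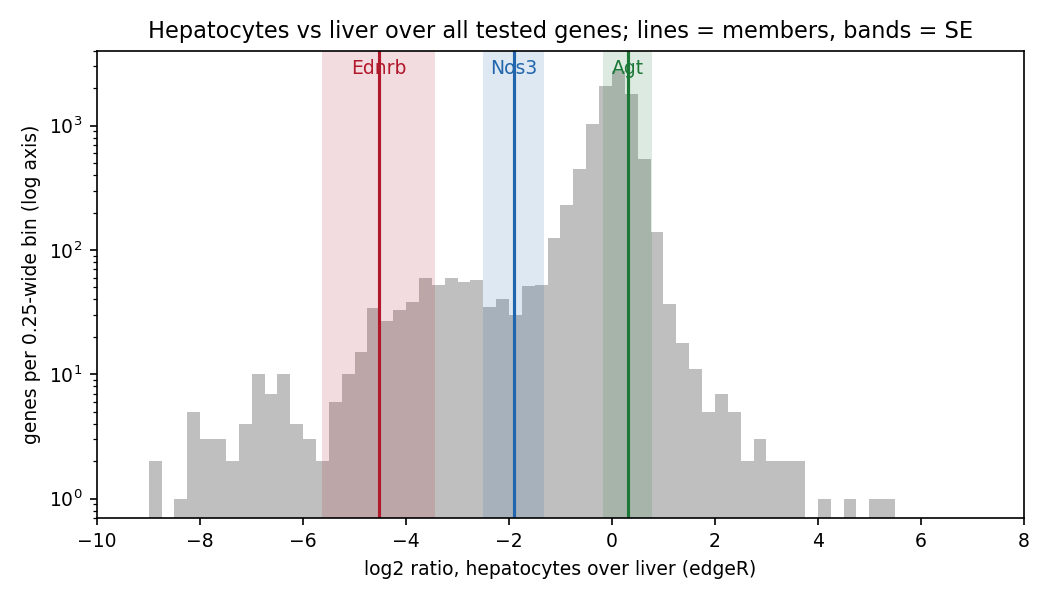
Number of genes (log axis) by log2 ratio of hepatocytes to liver, in bins of 0.25, for all 9932 genes of the edgeR fit. Lines mark Ednrb at -4.53, Nos3 at -1.91 and Agt at 0.30, and bands are their standard errors; 118 genes had a smaller log2 ratio than Ednrb and 580 a smaller one than Nos3.

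By pairs of libraries, the calls came from the libraries after IR, and liver control was the shallowest library. Ednrb was called lower in hepatocyte treated IR than in liver treated IR, at least 2.68-fold when 3 reads are taken as the hepatocyte level. The counting interval, which also covers the error of the 28 liver reads, began at 2.04-fold. It was called lower in hepatocyte IR than in liver IR, at least 6.13-fold on the same basis, with a counting interval that began at 4.61-fold. In these pairs 12.8% and 11.5% of genes were called lower. Nos3 was at 0.348 times the liver level in treated IR (counting interval 0.0904 to 0.962) and at 0.111 times in IR (0.0291 to 0.304), and was called lower in each. Between the control libraries neither gene was called: Nos3 had 5 reads in hepatocytes and 6 in liver, and a ratio of 0.593 (0.143 to 2.33). Ednrb had 1 read in hepatocytes and 3 in liver, and a ratio of 0.237 (0.00452 to 2.95). In the control pair 7.22% of genes were called lower.

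Agt, the angiotensin precursor, had 5901 reads in hepatocyte treated IR, 5401 in hepatocyte IR and 6603 in hepatocyte control. In liver it had 10514 reads in treated IR, 13033 in IR and 2720 in control. On the TMM scale these were 2733 CPM (counting interval 2664 to 2803), 1042 (1014 to 1070) and 2045 (1996 to 2094) in hepatocytes. In liver the levels were 1400.1 CPM (1373 to 1427), 1927 (1894 to 1960) and 1184 (1139.8 to 1229), in the same order of conditions. From high to low, the libraries ran hepatocyte treated IR, hepatocyte control, liver IR, liver treated IR, liver control and hepatocyte IR, and no neighbours in this order had overlapping counting intervals. The order was the same when levels were set by library total alone. The preparations overlapped, since hepatocytes held the highest and the lowest level.

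**Figure D3:**
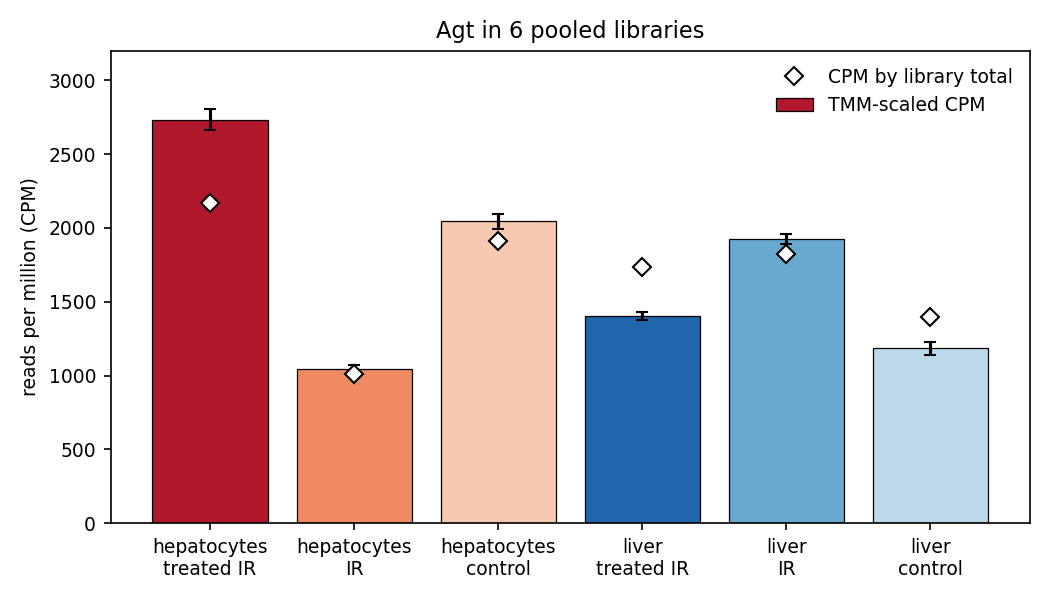
Agt in the 6 libraries, in CPM. Bars are TMM-scaled CPM with 95% Clopper-Pearson counting intervals and diamonds are CPM by library total; hepatocyte IR was lowest, at 1042 TMM-scaled CPM, and hepatocyte treated IR highest, at 2733.

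Over the 3 conditions Agt averaged 1940 ± 850.4 CPM in hepatocytes and 1504 ± 382 CPM in liver (SD, n = 3 libraries each). The log2 ratio of hepatocytes to liver was 0.30 (SE 0.48, edgeR adjusted p = 0.974). Scaled by library total alone it was -0.018, so no direction can be given. By pairs, the ratio of hepatocytes to liver was 1.95 (counting interval 1.89 to 2.02) in treated IR, 0.541 (0.524 to 0.558) in IR and 1.73 (1.65 to 1.81) in control. None of the 3 reached the 2-fold rule.

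The second comparison was between treated IR and IR alone. These groups differ in etanercept and nitroglycerin, but also in animals and library, which cannot be told apart. The Agt ratios lay on opposite sides of 1 in hepatocytes and liver, a contrast that was not tested with 1 library per group. In hepatocytes it was called higher with treatment, at 2.62 times the level of IR alone (counting interval 2.53 to 2.72), where 11.2% of genes were called higher. Of the 9932 genes, 578 had a larger log2 ratio in that pair. By library totals the hepatocyte ratio was 2.15, nearer the 2-fold rule, and Agt was still called. In liver it was at 0.727 times the level of IR alone (0.708 to 0.746) and was not called. By library totals the liver ratio was 0.953, because that scaling shifts every log2 ratio of the pair by 0.39.

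Nos3 and Ednrb were not called between the liver libraries of this comparison. Nos3 had 40 reads in liver treated IR and 47 in liver IR, a ratio of 0.767 (counting interval 0.490 to 1.19). Ednrb had 28 and 24 reads in the same libraries, a ratio of 1.05 (0.587 to 1.89). Both intervals include 1 and leave room for ratios as low as 0.490 for Nos3 and as high as 1.89 for Ednrb. In hepatocytes Nos3 had 4 reads in each of the pair, at 1.85 CPM in treated IR and 0.772 CPM in IR. That is a ratio of 2.40 (counting interval 0.447 to 12.9), which was not called. Ednrb had 0 reads in each.

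Edn1, the endothelin-1 ligand, was read in liver treated IR alone, with 5 reads or 0.666 CPM (counting interval 0.216 to 1.55). The other 5 libraries had 0 reads. Against liver IR this was at least 1.5-fold higher, taking 3 reads as the liver IR level, and the counting interval of the ratio began at 0.825, so Edn1 was not called. The level of liver treated IR was below what 3 reads would give in some libraries. These were liver control (1.31 CPM), hepatocyte control (0.929 CPM) and hepatocyte treated IR (1.39 CPM), so no fold can be given against them. Ptgs2, the inducible cyclooxygenase, had 1 read, also in liver treated IR (0.133 CPM, 0.00337 to 0.742), and 0 in the other 5 libraries.

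Nos2, the inducible nitric oxide synthase, had 0 of 26666437 reads over the 6 libraries, which allows up to 0.111 CPM over all of them. Per library the limit was 1.39, 0.579 and 0.929 CPM in hepatocyte treated IR, IR and control, and 0.399, 0.443 and 1.31 CPM in the liver libraries in that order. A count of 0 in all 6 libraries was shared by 10141 gene IDs, or 38.0% of all. Whether reads of Nos2 were lost to an overlapping or similar gene in the authors' counting was not tested.

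The third comparison was of IR alone against control. With no sham operation named, ischemia, surgery and the difference of animals and library cannot be told apart. The Agt ratios were again on opposite sides of 1. In hepatocytes it was at 0.510 times the control level (counting interval 0.491 to 0.528), just short of the 2-fold rule, in a pair where 6.93% of genes were called lower. In liver it was at 1.63 times the control level (1.56 to 1.70) and was not called. The liver ratio was 1.30 by library totals. Nos3 was called higher in liver IR, with 47 reads against 6 in liver control and a ratio of 2.66 (1.14 to 7.62), in a pair where 3.76% of genes were called higher. By library totals the Nos3 ratio was 2.13 and the gene was no longer called. Ednrb had 24 reads in liver IR and 3 in liver control, a ratio of 2.72 (0.825 to 14.1), and was not called. In hepatocytes Nos3 had 4 reads in IR and 5 in control, a ratio of 0.498 (0.0989 to 2.32).

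Treated IR was last set against control. In hepatocytes Agt was at 1.34 times the control level (counting interval 1.29 to 1.38). In liver it was at 1.18 times (1.13 to 1.23). Neither was called, in pairs where 4.23% and 4.82% of genes were called higher. Nos3 had 40 reads in liver treated IR and 6 in liver control, a ratio of 2.04 (0.859 to 5.89). Ednrb had 28 and 3 reads in these libraries, a ratio of 2.86 (0.882 to 14.7). The comparisons of IR and of treated IR with liver control share that control library, the shallowest of the 6, in which Nos3 and Ednrb had 9 reads together.

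**Figure D4:**
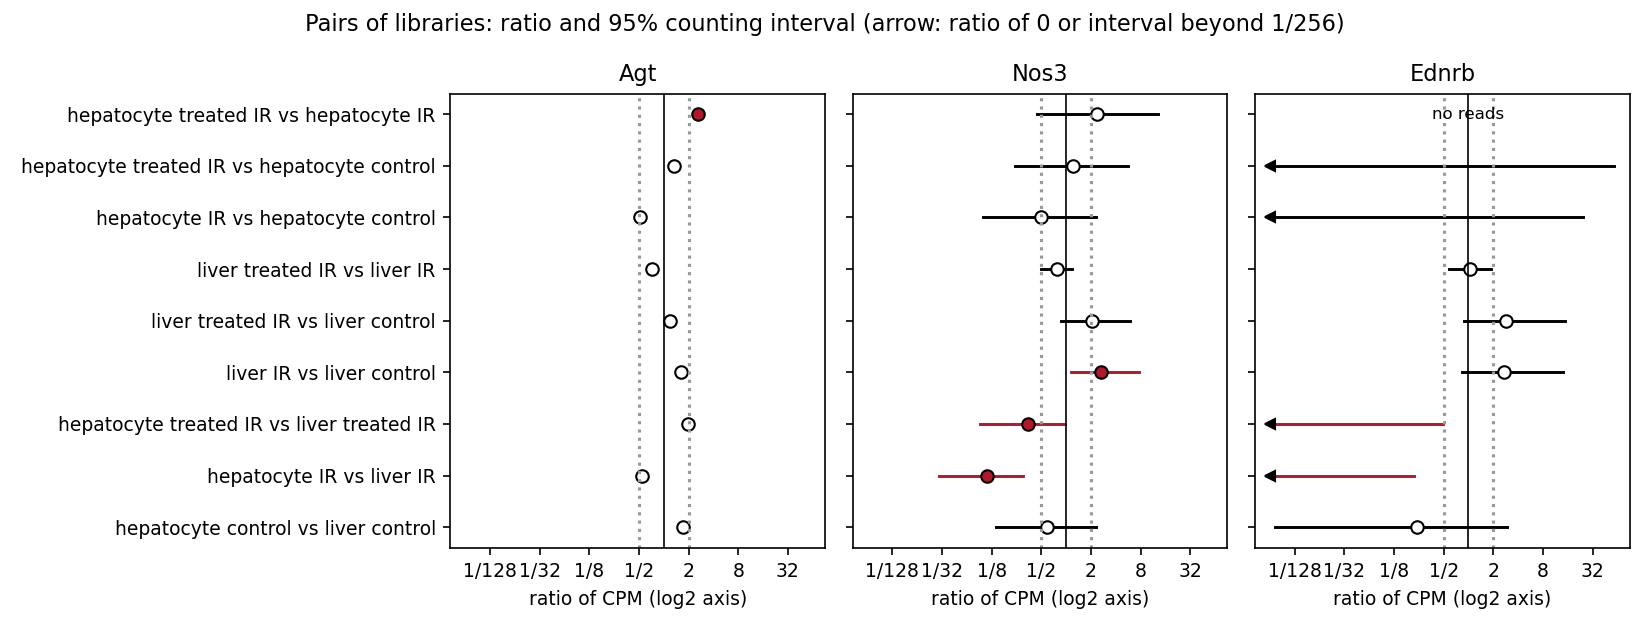
Ratio of TMM-scaled levels (log2 axis) of Agt, Nos3 and Ednrb in 9 pairs of libraries, with 95% Clopper-Pearson counting intervals; dotted lines mark 2-fold and red marks pairs called apart. Agt was at 2.62 in hepatocyte treated IR against hepatocyte IR and at 0.727 in liver treated IR against liver IR, on opposite sides of 1.

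A change of condition shared by both preparations was tested in a model of all 6 libraries that allows for preparation and leaves 2 residual degrees of freedom. Agt, Nos3 and Ednrb were not called in any of these comparisons, and edgeR called 0% of the 9932 genes. For treated IR vs IR alone the log2 ratios were 0.38 for Agt (SE 0.58, edgeR adjusted p = 0.981), 0.06 for Nos3 (SE 0.63) and 0.14 for Ednrb (SE 0.92). For IR vs control they were -0.04 for Agt (SE 0.58), 0.55 for Nos3 (SE 0.73) and 0.78 for Ednrb (SE 1.15), with edgeR adjusted p-values of at least 0.996. For treated IR vs control they were 0.35 for Agt (SE 0.56), 0.61 for Nos3 (SE 0.76) and 0.93 for Ednrb (SE 1.16). The spread in this fit includes any response that differs between hepatocytes and liver. At an unadjusted p under 0.05 edgeR had 297 genes for treated IR vs IR, 332 for IR vs control and 230 for treated IR vs control. DESeq2 called 1, 0 and 0 genes and limma-voom 0 in each.

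The profiles of the 3 filtered genes over the 6 libraries were compared with those of the other 9931 genes by Pearson's r of log2 CPM, as a description, since 6 points in 2 preparations share depth and preparation. Nos3 and Ednrb had r = 0.93 with each other. Agt had r = 0.18 with Nos3 and r = -0.15 with Ednrb. Above r = 0.95 there were 82 genes for Agt, 39 for Nos3 and 169 for Ednrb. The gene most like Agt was ENSRNOG00000032395 (r = 0.99), at 29.6, 17.4 and 26.3 CPM in hepatocyte treated IR, IR and control and at 21.3, 23.7 and 19.2 CPM in the liver libraries. The gene most like Ednrb was ENSRNOG00000008246 (r = 0.996), at 4.17, 3.28 and 6.19 CPM in the hepatocyte libraries and at 42.2, 38.0 and 18.7 CPM in the liver libraries, in the same order. The sources used here give no symbols for these IDs.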

How the data were processed

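Poly(A)-selected RNA, pooled from 3 animals per library, was sequenced on the Ion Torrent Proton platform, per the labels' protocols. The authors deposited unnormalized read counts for each Ensembl gene ID. The submitters' processing notes name TopHat2 2.0.13 and HTSeq 0.6.1. The build, the annotation and whether strand was used are not stated, so reads of overlapping or antisense genes could be split or lost. Summary lines of the counting program name no gene and were left out: reads outside genes made up 6.23% to 8.34%, and ambiguous reads 0.358% to 0.798%, of uniquely aligned reads.

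Groups came from sample titles. The expression filter was filterByExpr of edgeR with a minimum count of 10 and condition as group, and scaling was by TMM. Pairs of libraries were compared by ratio with a 95% Clopper-Pearson interval, with no p-value. edgeR's quasi-likelihood test was run on the counts of all 6 libraries with preparation and condition as terms, with Benjamini-Hochberg adjustment over 9932 genes at 0.05. Intervals and limits cover counting error only. With no repeat pool in any group, p-values measure the spread left after the preparation and condition terms. That spread mixes variation between pools with any response that differs between hepatocytes and liver. Likeness used a prior count of 2. Scripts were tested on simulated data. Software was R 4.3.3 with DESeq2 1.42.0, limma 3.58.1 and edgeR 4.0.16, and matplotlib 3.10.9 for figures.

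The rule for the members uses no measured values, but the members, lists and tests were chosen with earlier results of these data known. The motifs were chosen after the sequences were seen. The rule for named genes takes the 6 members, genes of 4 pathway lists (66 symbols) that pass a test, and the genes most like a member. Lists and 30 cell type markers are by symbol, so with 0 IDs matched they were not run.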

Additional observations from a re-analysis of the deposited data

Results flagged for a closer look

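Agt had condition ratios with counting intervals on opposite sides of 1 in hepatocytes and in liver. This does not set Agt apart from the other members. Nos3 had at most 5 reads in a hepatocyte library and Ednrb at most 1, and none of their hepatocyte intervals excluded 1. The intervals of Agt are narrow because its reads are many. The share of all genes with the same pattern is not given here. For treated IR against IR alone the ratio was 2.62 in hepatocytes and 0.727 in liver. For IR against control it was 0.510 in hepatocytes and 1.63 in liver. Each group is 1 library, so this contrast of hepatocytes with liver was not tested. Both hepatocyte ratios use the hepatocyte IR library, and both liver ratios use the liver IR library. These pairs also differed in the share of all genes called apart, at 23.3% and 16.5% in hepatocytes against 2.77% and 5.98% in liver, and the part of this in the Agt ratios was not tested.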

How the results depend on the processing

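No paired analysis was possible, because hepatocytes and whole liver came from separate animals and no group had a repeat library. Ednrb in hepatocytes vs liver stayed called with DESeq2's size factors, library totals, no filter, DESeq2's Wald test (adjusted p = 0.0469) and limma-voom, and was not tested at a minimum count of 50, nor was Nos3. Nos3 there had a log2 ratio of -1.91 with and without the filter, called only without it. Agt had -0.018 by library totals, and Nos3 -0.028 for treated IR vs IR by limma-voom. By library totals the Agt ratios were 1.13, 0.529, 0.953, 1.24 and 1.30 (hepatocyte treated IR vs control, IR vs control, liver treated IR vs IR, treated IR vs control, IR vs control), and hepatocytes vs liver 1.25 in treated IR and 1.37 in control (1.82 and 1.64 at a minimum count of 50). A 4-fold rule removed the call at 2.62. The cause of these changes was not tested.

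Leaving out each library in turn, log2 ratios of hepatocytes vs liver ran from -7.17 to -3.46 for Ednrb, -2.36 to -1.17 for Nos3 and -0.072 to 0.88 for Agt. For IR vs control they ran from -3.76 to 1.43, -0.74 to 1.19 and -1.02 to 0.73, for treated IR vs IR from -2.56 to 3.37, -0.46 to 1.48 and -0.43 to 1.34, and for treated IR vs control from -3.70 to 1.49, -0.36 to 1.26 and -0.24 to 0.77, in the same order of genes. A lone library then stands for a condition and is assumed to vary like the others.

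Over all genes, the 9 pairs had 275 to 2311 genes apart, 37 to 792 by a 4-fold rule, 58 to 1413 at a minimum count of 50, 504 to 2398 with no filter and 636 to 3149 by library totals. Hepatocytes vs liver had 530, 158 at a minimum count of 50 and 390 to 755 without 1 library. Without 1 library, 3 to 402 genes were called for IR vs control, 0 to 659 for treated IR vs IR and 0 to 37 for treated IR vs control, against 0; with no filter 3, 31 and 14. A prior count of 0.5 left 108 genes above r = 0.95 with Ednrb, against 169. Depth limits Edn1, Ptgs2 and Nos2 to the per-library limits given.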
